A study of Homo sapiens with 6 samples.

Results

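The genes TFRC, MYLIP, FCHSD2 and ACAP2, which act in the uptake of nutrients and membrane, were examined by the accessibility of their chromatin. The tables name the gene nearest to each region, and every region whose nearest gene was one of these 4 was taken. This gave 4 regions, 1 per gene, of 591 listed regions nearest to 569 genes. The FCHSD2 and ACAP2 regions are in the DMSO table and the TFRC and MYLIP regions in the ATRA table. The genes were chosen because they are listed, and listing itself required that the authors' test of knockdown against control gave p under 0.005 before adjustment, so every difference below is a description of selected regions.

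The libraries were ATAC-seq libraries, in which the transposase Tn5 inserts adapters into open chromatin. They came from NB4, a human acute promyelocytic leukaemia cell line used as a model of granulocyte differentiation, which all-trans retinoic acid (ATRA) induces. In each treatment, DMSO alone (cells labelled undifferentiated) or 1 µM ATRA (labelled differentiated), there was 1 control library (labelled CTRL) and 1 library for each of 2 hairpins against SMARCD2 (shRNA1 and shRNA2), a subunit of SWI/SNF chromatin remodelling complexes. Each was made from 50000 cells. Both hairpin libraries serve as the knockdown replicates (n = 2), nothing says that they came from separate cultures, and the spread between controls was not measured.

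Cells take up iron by binding transferrin to the transferrin receptor, which is carried into the cell in clathrin-coated vesicles, releases its iron in the acid endosome and returns to the surface. Lipoprotein particles enter through receptors of the same vesicle route, and their receptors can instead be sent to the lysosome when a ubiquitin ligase marks them. TFRC codes for the transferrin receptor. MYLIP, also called IDOL, codes for a ubiquitin ligase that marks lipoprotein receptors for breakdown and is induced by the sterol-sensing liver X receptors. FCHSD2 codes for a protein that has an F-BAR domain, which binds membrane, and that promotes actin assembly at clathrin-coated pits. ACAP2 codes for a GTPase-activating protein for ARF6, a small GTPase of endocytic recycling. Rapidly dividing cells such as leukaemia lines have a high demand for iron, and TFRC is a common surface marker of proliferation.

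The start sites of the 4 genes are shown first, since the accessible regions of 3 of them are wide and lie in the gene. The sequences are the 250 bases before each annotated start, from RefSeq on GRCh38.p14, written 5′ to 3′ on the gene's strand. Capitals mark matches, on either strand, to 6 motifs: the CCAAT box (CCAAT), the GC box (GGGCGG), the TATA box (TATAAA), an ETS core (GGAAGT), an E-box (CACGTG) and a nuclear receptor half-site (AGGTCA). The GC box pair of FCHSD2 overlaps, and no match of 1 motif overlaps a match of another.
MYLIP, chr6:16128836-16129085, plus strand: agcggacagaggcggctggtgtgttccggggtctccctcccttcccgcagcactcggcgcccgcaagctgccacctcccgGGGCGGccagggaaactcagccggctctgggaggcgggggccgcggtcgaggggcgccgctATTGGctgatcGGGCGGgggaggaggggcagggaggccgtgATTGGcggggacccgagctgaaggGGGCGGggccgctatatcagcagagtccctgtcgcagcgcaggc
FCHSD2, chr11:73142319-73142568, minus strand: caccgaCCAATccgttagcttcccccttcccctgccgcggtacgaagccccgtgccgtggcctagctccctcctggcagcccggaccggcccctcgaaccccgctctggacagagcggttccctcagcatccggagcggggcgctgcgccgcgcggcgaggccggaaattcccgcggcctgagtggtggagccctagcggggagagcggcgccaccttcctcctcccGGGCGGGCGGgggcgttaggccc
ACAP2, chr3:195443021-195443270, minus strand: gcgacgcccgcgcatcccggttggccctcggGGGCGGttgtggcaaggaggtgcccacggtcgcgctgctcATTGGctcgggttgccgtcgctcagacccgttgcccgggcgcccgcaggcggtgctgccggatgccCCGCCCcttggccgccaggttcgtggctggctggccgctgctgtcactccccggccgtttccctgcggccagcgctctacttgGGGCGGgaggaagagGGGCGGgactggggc
TFRC, chr3:196082091-196082340, minus strand: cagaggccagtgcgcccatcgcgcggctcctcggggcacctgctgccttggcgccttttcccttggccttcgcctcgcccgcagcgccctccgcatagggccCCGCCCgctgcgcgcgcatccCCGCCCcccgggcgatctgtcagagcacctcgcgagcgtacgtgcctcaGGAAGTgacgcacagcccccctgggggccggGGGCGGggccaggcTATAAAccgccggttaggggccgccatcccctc
All 4 are rich in G and C, from 73.6% in MYLIP to 74.8% in ACAP2, against a median of 58% over 35116 promoters of the same length. They hold 25 CpG pairs in MYLIP, 29 in ACAP2 and in TFRC and 30 in FCHSD2, against a median of 11.

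The GC box is in all 4, with 3 matches in MYLIP, 2 in FCHSD2, 4 in ACAP2 and 3 in TFRC, and in 42.6% of all promoters. A CCAAT box is in MYLIP (2 matches), FCHSD2 (1) and ACAP2 (1) and in 32% of promoters. The TATA box is in TFRC, where it begins 33 bases before the start, and in 10.7% of promoters. The ETS core is also in TFRC, 78 bases before the start, and in 19.5% of promoters. No match to the E-box (6.34% of promoters) or to the half-site (12.1%) is in these windows. The accessible regions below are in GRCh37.p13 coordinates, a different build, so the promoters and the regions could not be overlaid, and the regions' own sequences were not used here. For each of the 4 regions the tables give a distance of 0 to the gene and do not say whether it lies in an exon, an intron or a UTR.

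Scale matters for what follows, and 2 scales are given. The fold change scale divides reads by the effective library sizes that the authors' fold changes imply, in DMSO 11497000 for the control, 13747000 for shRNA1 and 14718000 for shRNA2, and in ATRA 14373000, 17632000 and 17268000 in the same order. The normalized count scale is that of the authors' normalized columns. The inverse of the authors' factor for each library was found to equal, within 0.01%, the median-of-ratios size factor (DESeq2's default) computed from the listed regions alone, for example 0.5462 for the ATRA control by either route. That scale therefore centres the listed regions that have reads in all 3 libraries, 202 in DMSO and 163 in ATRA. Against the fold change scale it lowers every log2 ratio of knockdown to control by 0.18 in DMSO and by 1.00 in ATRA.

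The members of membrane remodelling, both listed in DMSO, held fewer reads in the knockdown. The FCHSD2 region (chromosome 11, 72852979 to 72853863, GRCh37.p13, 885 bp, minus strand of the gene) had 436 reads with shRNA1, 508 with shRNA2 and 524 in the control. On the fold change scale these were 317, 345 and 456 reads per 10000000. Both hairpin libraries lay below the control and close to each other, at 331 ± 19.8 reads per 10000000 (SD, n = 2). The summed knockdown reads were 1.37-fold lower than the control (95% exact counting interval 1.23 to 1.53). This interval and those below cover counting error only. Over all listed regions the hairpin libraries scattered more than that, with a chi-square per degree of freedom of 1.94 in DMSO and 2.22 in ATRA. An interval that excludes 1 therefore does not show a change beyond the scatter between libraries. With shRNA1 alone the region was 1.44-fold lower (1.26 to 1.64) and with shRNA2 alone 1.32-fold (1.17 to 1.49). The ratio of shRNA2 to shRNA1 was 1.09 (0.956 to 1.24), an interval that includes 1.

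FCHSD2 held the most reads of all 323 regions in the DMSO table, 1468 over the 3 libraries, and its authors' log2 fold change of -0.46 is the smallest in size of all 323. Per 100 bp of region it had 166 reads. On the normalized count scale it held 386 (shRNA1), 420 (shRNA2) and 629 (control) normalized counts and was 1.56-fold lower (1.40 to 1.74). The direction was the same on both scales. With edgeR's TMM factors computed from the listed regions it was 1.16-fold lower (1.04 to 1.29), and with shRNA2 alone the interval of that fold, 0.979 to 1.25, included no change. The p in the authors' deposited table was 0.00454, the 302nd smallest of 323, so the region is near the limit of 0.005 that decides listing. Values outside the limit were not analysed here.

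The ACAP2 region (chromosome 3, 195163182 to 195164173, GRCh37.p13, 992 bp, minus strand of the gene) had 326 reads with shRNA1, 302 with shRNA2 and 359 in the control. These were 237, 205 and 312 reads per 10000000 on the fold change scale. Again both hairpin libraries were below the control. The knockdown mean was 221 ± 22.6 reads per 10000000 (SD, n = 2). The summed reads were 1.42-fold lower than the control (1.24 to 1.61). The shRNA2 library was the lower of the pair, 1.52-fold below the control (1.30 to 1.78) against 1.32-fold for shRNA1 (1.13 to 1.53), and the ratio between the hairpins was 0.865 (0.737 to 1.01).

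ACAP2 ranked 2nd in reads (987) and 2nd from the smallest in the size of its fold change (-0.50) in the authors' deposited table, where its p was 0.00427. In normalized counts it held 288, 249 and 431 and was 1.61-fold lower (1.41 to 1.83). With the TMM factors it was 1.19-fold lower (1.04 to 1.36), and with shRNA1 alone the interval, 0.954 to 1.30, included no change. In reads per 10000000 in the control the FCHSD2 region is the higher of the 2 (456 against 312), and per 100 bp too (166 against 99.5 reads over the 3 libraries). Their ratios to the control, 0.728 (0.653 to 0.811) and 0.707 (0.620 to 0.807), have intervals that overlap for most of their length. Both rest on the same control library.

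**Figure D1:**
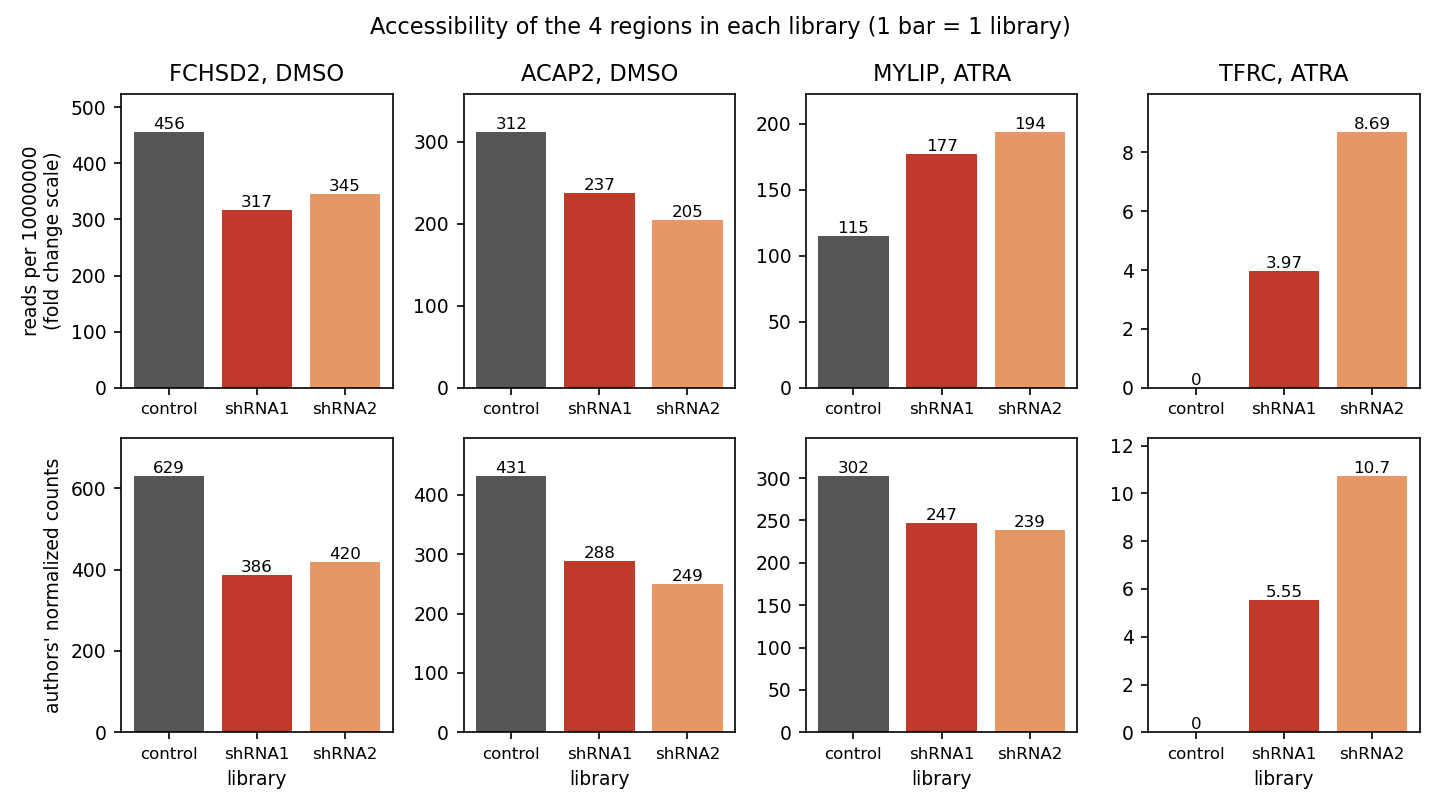
Bars give the value of each of the 4 regions in each library (control, shRNA1, shRNA2), as reads per 10000000 on the fold change scale in the upper row and as the authors' normalized counts in the lower row, each axis starting at 0. FCHSD2 and ACAP2 are below the control with both hairpins in both rows, whereas MYLIP is above the control (115) in the upper row and below it (302) in the lower row, and TFRC has 0 in the control.

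The lipoprotein receptor ligase and the transferrin receptor, both listed in ATRA, held more reads in the knockdown on the fold change scale. The MYLIP region (chromosome 6, 16129015 to 16130070, GRCh37.p13, 1056 bp, plus strand of the gene) had 312 reads with shRNA1, 335 with shRNA2 and 165 in the control. These were 177, 194 and 115 reads per 10000000. Both hairpin libraries were above the control, at 185 ± 12.1 reads per 10000000 (SD, n = 2). The knockdown was 1.61-fold higher (1.36 to 1.93), with 1.54-fold for shRNA1 (1.27 to 1.87) and 1.69-fold for shRNA2 (1.40 to 2.05). The ratio of the hairpins was 1.10 (0.937 to 1.28).

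On the normalized count scale the direction of MYLIP was the opposite. The library values were 247 with shRNA1, 239 with shRNA2 and 302 in the control, so that both hairpin libraries lay below the control, at 243 ± 5.69 (SD, n = 2). The knockdown was 1.24-fold lower (1.04 to 1.48). The TMM factors, from the listed regions and their summed reads, gave 1.14-fold lower (0.957 to 1.36), an interval that includes no change. The 2 hairpins thus lay close to each other on every scale, and the side of the control on which they lay was set by the scale. The authors' log2 fold change was 0.69 and their deposited p 0.00296.

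The TFRC region (chromosome 3, 195800276 to 195800381, GRCh37.p13, 106 bp, minus strand of the gene) was of another kind, with 7 reads for shRNA1, 15 for shRNA2 and 0 in the control. These were 3.97, 8.69 and 0 reads per 10000000 on the fold change scale. Both hairpin libraries had reads where the control had none, and the shRNA2 library had the more. With a floor of 3 reads set in place of the control's count of 0, the summed knockdown was 3.02-fold higher. The exact 95% lower limit of the ratio, which also covers the counting error of the knockdown reads, was 2.26. The shRNA1 library alone had an exact lower limit of 1.17 and shRNA2 alone 2.99. The ratio between the hairpins was 2.19 (0.840 to 6.34), so a difference between them was not detectable at this depth.

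In normalized counts TFRC held 5.55 (shRNA1), 10.7 (shRNA2) and 0 (control). There, with the same floor of 3 reads for the control, it was 1.50-fold higher, with an exact lower limit of 1.12 for the summed reads. For shRNA1 alone that limit was 0.624, so no change lies within its interval, and for shRNA2 alone it was 1.40. The authors' log2 fold change of 6.39 has no upper bound in the data, since the control had 0 reads and the fitted value rests on the prior count. Their deposited p was 0.00152. With 22 reads in all TFRC ranked 201st of 268 in coverage and 192nd in width.

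**Figure D2:**
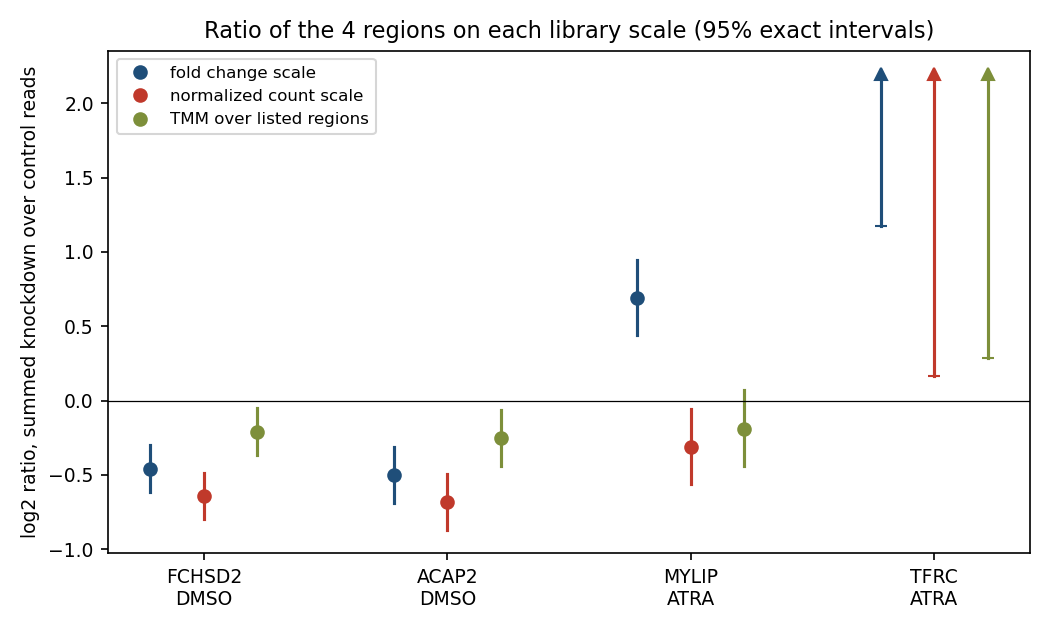
Points are the log2 ratio of the summed knockdown reads to the control reads for each region, bars are 95% exact counting intervals, and colours are the 3 library scales. Arrows for TFRC run upward from the exact lower limit, since its control had 0 reads. FCHSD2 and ACAP2 stay below 0 and TFRC above 0 on all 3 scales, and MYLIP is above 0 on the fold change scale and below 0 on the others.

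FCHSD2, ACAP2 and MYLIP share a width and depth that few listed regions have. They are 885, 992 and 1056 bp wide against a median of 141 bp in the DMSO table and 149 bp in the ATRA table, and rank 8th, 2nd and 3rd in width in their tables. MYLIP ranks 2nd in reads (812) in ATRA. In size of fold change, counted from the smallest, they rank 1st, 2nd and 3rd. Listing ties these ranks to depth, since a small fold change passes the p limit of 0.005 more easily with many reads.

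The direction of these 3 was that of most wide regions of their table. Of the other 34 DMSO regions of at least 500 bp (a width chosen after the data were seen), 27 were lower and 7 higher in the authors' table, with a median log2 fold change of -0.59, against 110 lower and 213 higher over all 323. Of the other 36 such ATRA regions, 33 were higher and 3 lower, with a median of 0.89. On the normalized count scale the 36 were 13 higher and 23 lower, whereas the 34 in DMSO stayed at 7 and 27. MYLIP therefore lies with the majority on either scale, and its change cannot be told apart from the library scale that these regions share. The TFRC region belongs to another class: 101 of 268 ATRA regions had 0 control reads, all 101 are higher by construction, and the other 100 had a median width of 103 bp and a median of 21 reads, beside 106 bp and 22 reads for TFRC.

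**Figure D3:**
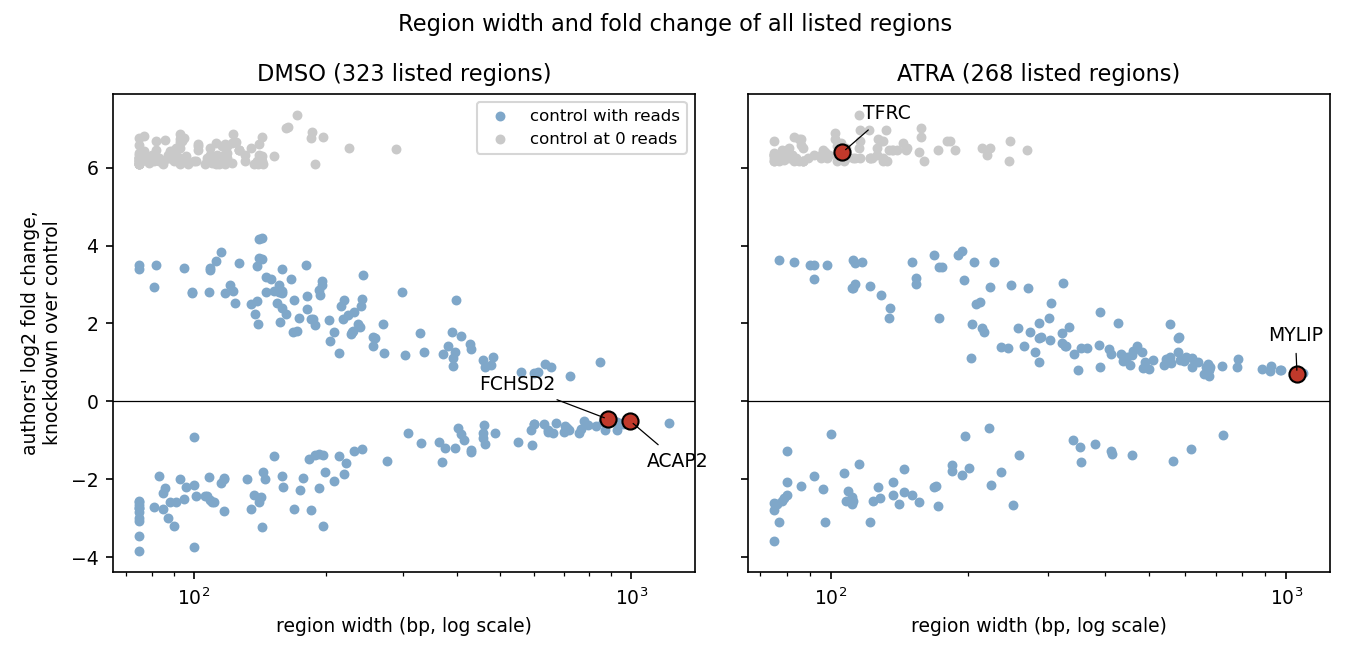
Each point is a listed region, with its width in bp on a log axis and the authors' log2 fold change of knockdown over control; grey points had 0 control reads and red points are the 4 regions. FCHSD2 and ACAP2 sit at the wide end with small negative values (-0.46 and -0.50), MYLIP at the wide end with 0.69, and TFRC among the narrow regions without control reads at 6.39.

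In edgeR's quasi-likelihood test over each whole table (Benjamini-Hochberg adjusted p under 0.05), all 4 regions passed the count filter and 4 of 4 were called. The background is 100% of 314 tested DMSO regions and 100% of 267 tested ATRA regions (34.4% called lower in DMSO, 79.0% called higher in ATRA), since the rows were selected by p, so nothing is read from the members' calls. On the normalized count scale, where 148 of 257 tested ATRA regions were called, MYLIP was not (edgeR adjusted p = 0.0819). On the TMM scale 291 of 314 tested DMSO regions and 154 of 258 tested ATRA regions were called. There TFRC alone of the 4 was called (edgeR adjusted p = 0.0421), and FCHSD2 (adjusted p = 0.287), ACAP2 (0.228) and MYLIP (0.256) were not. TFRC met the filter's minimum of 10 reads only in the shRNA2 library (15 reads, beside 7 for shRNA1 and 0 in the control). With 0 control reads it could only be higher, so nothing is read from its call on this scale either.

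The regions most alike over the 3 libraries, by Euclidean distance between log2 reads per 1000000 after adding 0.5 reads, were named for each member. Over 3 libraries this is a thin measure that mostly reads depth. ACAP2 was most like a region 868 bp from DUSP6, with 301, 276 and 332 reads for shRNA1, shRNA2 and control (distance 0.21), and one in RRM2 (0.52). FCHSD2 had no close counterpart: ACAP2 itself came first, at 1.0, and the DUSP6 region next, at 1.2. MYLIP was most like regions in PABPN1, with 302, 437 and 195 reads (0.45), and SEL1L, with 283, 251 and 136 (0.52). TFRC was most like a region 9628 bp from ADCY9, with 8, 16 and 0 reads, and one in FLVCR1, with 8, 14 and 0, both at 0.20.

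ACAP2 and TFRC are neighbours on chromosome 3. Their regions lie 636103 bp apart, with 6 protein-coding genes between the genes in RefSeq. The ACAP2 region was listed in DMSO, with fewer reads in the knockdown, and the TFRC region in ATRA, with more. Within 1000000 bp of either region 1 further region was listed, in XXYLT1 in ATRA, 171022 bp from the ACAP2 region, with 141, 180 and 75 reads for shRNA1, shRNA2 and control. No other region was listed within that distance of MYLIP, and for FCHSD2 there was 1, in PDE2A in ATRA, 464927 bp away, with 15, 14 and 0 reads. No member was listed in both treatments, so how its region behaved in the other treatment was not analysed here, and no difference between treatments was tested.

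The wider uptake machinery was read from 6 lists with 217 genes, the members included. Apart from the members, the DMSO table listed 4 of these genes, of which 3 were higher and 1 lower in the authors' test, and the ATRA table listed 6, all 6 higher, beside 65.9% and 79.1% higher over all listed regions. Of the 6, 3 had 0 control reads and could only be higher, and on the normalized count scale the other 3 were below the control on average (3 higher and 3 lower, with 69.0% of all ATRA regions higher). The listed genes are 1.88% (DMSO) and 2.82% (ATRA) of the 213 list genes that are no members, beside 1.59% and 1.3% of 20056 protein-coding genes in RefSeq, a description of small counts. Of the 20 transferrin and iron uptake genes TFRC alone was listed. Of the 26 genes of lipoprotein receptor uptake MYLIP was joined by SORL1, a sorting receptor of the lipoprotein receptor family, whose 107 bp region in ATRA had 8 reads (shRNA1), 11 (shRNA2) and 0 (control). With the floor of 3 reads for the control this is 2.61-fold higher on the fold change scale (exact lower limit 1.92). In normalized counts the exact lower limit was 0.958, below 1.

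Among the 55 clathrin and F-BAR genes, the synaptojanins, phosphoinositide phosphatases that help strip clathrin from vesicles, had 2 listed regions. SYNJ2 in DMSO had 26 reads (shRNA1), 20 (shRNA2) and 2 (control) and was 9.29-fold higher (2.43 to 79.0). SYNJ1 in ATRA had 10, 16 and 0. With the floor of 3 reads for the control it was 3.57-fold higher (exact lower limit 2.7). In normalized counts the floor gave 1.78-fold, with an exact lower limit of 1.35. The region 8419 bp from SH3GL3, an endophilin gene, had 9, 16 and 0 reads in ATRA. These 3 are narrow regions of 86 to 167 bp, unlike the wide FCHSD2 region. The SYNJ1 and SH3GL3 regions had 0 control reads and could only be higher, and their treatment was not that of FCHSD2. SYNJ2, listed in DMSO as FCHSD2 was, lay on the other side of the control from it, with 2 control reads.

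Of the 48 genes of the ARF6 pathway and recycling, 2 besides ACAP2 were listed, both in DMSO. ARF1, a small GTPase of the ARF family, had 79 reads with shRNA1, 80 with shRNA2 and 113 in the control over 488 bp and was 1.76-fold lower (1.37 to 2.25), the same direction as ACAP2. IQSEC1, an exchange factor that activates ARF6, had 17, 32 and 1 reads and was 19.8-fold higher (3.39 to 797). The range of that interval reflects the single control read.

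In the endosome sorting list (49 genes) RABEP2, a partner of the endosomal GTPase RAB5, and VPS37A, a subunit of the ESCRT-I sorting complex, had wide ATRA regions of 972 and 923 bp. RABEP2 had 209, 206 and 97 reads for shRNA1, shRNA2 and control and was 1.76-fold higher (1.41 to 2.22). VPS37A had 178, 191 and 89 and was 1.71-fold higher (1.35 to 2.18). As at MYLIP, both hairpins were below the control in normalized counts: 166 and 147 against 178 for RABEP2, and 141 and 136 against 163 for VPS37A. In the list of caveolae and macropinocytosis (19 genes) SWAP70, an actin-binding protein gene, was 2.38-fold higher in DMSO (1.57 to 3.72), 6734 bp from its region. PAK1, a kinase of actin remodelling, was 1.98-fold higher in ATRA (1.40 to 2.85), with normalized counts of 65.0 and 78.6 against 73.2, on both sides of the control.

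Neither the knockdown nor the cell identity could be checked in these tables. SMARCD2 had 0 listed regions, and these libraries measure neither its RNA nor its protein, so the depletion was not checked. Of 16 myeloid marker genes 1 (AZU1, in DMSO) was listed, and as regions are listed only where libraries differed, this does not test the identity of the cells. Between the reads of the hairpin libraries the chi-square per degree of freedom was 1.94 (DMSO) and 2.22 (ATRA), so their columns are not copies of 1 library's counts. This does not show that they came from separate cultures.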

How the data were processed

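The tools named are MACS2, STAR, edgeR, bcl2fastq and Picard 2.5.0 and the build is GRCh37.p13, per the submitters' processing notes. How peaks were called, whether the Tn5 offset was applied and how duplicates were handled was not given in the sources used here. Raw read counts per region and library were used as the authors deposited them. The deposited normalized counts are a signal, the raw counts times 1 factor per library. The authors' log2 fold change and mean log2 CPM, their F score and their unadjusted p-value are as deposited, per the file headers. The largest p is 0.00499 in DMSO and 0.00498 in ATRA, and regions beyond that were not analysed here. The free text for the control in DMSO names ATRA; its title and column name give DMSO and were followed.

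Library sizes were recovered by least squares from the deposited fold changes and mean abundances (largest deviation 0.0066 in DMSO and 0.0017 in ATRA, in log2 units, at a fitted dispersion of 0.05 in each). Depth in the listed regions was 11001 to 12982 reads per library in DMSO and 5530 to 11371 in ATRA. edgeR 4.0.16 (quasi-likelihood, R 4.3.3) was fitted on each whole table with filterByExpr (minimum 10 reads), Benjamini-Hochberg adjustment and 1 residual degree of freedom, and was tested on simulated data. DESeq2 1.42.0, TMM factors, the normalized count scale, no filter and another prior were alternatives. Intervals are exact conditional binomial (Clopper-Pearson, 95%, scipy 1.17.1). Intervals and floors cover counting error only, and reads without molecular identifiers are not independent molecules. Named were all regions of the 4 genes, every other list gene with a listed region, and the 2 most alike regions per member. The members and lists were chosen with earlier results of these data known. P-values measure only how far these libraries scatter, which may be technical. All 4 members matched the RefSeq promoter table (GRCh38.p14) by symbol.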

Additional observations from a re-analysis of the deposited data

How the results depend on the processing

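Log2 ratios here include a prior of 0.5 reads per library. MYLIP, 0.69 on the fold change scale, reversed to -0.32 on the normalized count scale, -0.19 with TMM factors from the listed regions and -0.31 with DESeq2's own size factors because those scales lower every ATRA ratio by a constant (by 1.00 on the normalized count scale). FCHSD2 (-0.46) moved to -0.64, -0.21 and -0.64 under the same 3 settings, and ACAP2 (-0.50) to -0.68, -0.25 and -0.68, with no change of direction. DESeq2's own size factors equal those of the normalized count scale within 0.01%, so these 2 settings are the same scale and not separate alternatives. TFRC (4.24) moved to 3.24 on the normalized count scale, 3.36 with TMM, 2.42 with a prior of 2 reads and 5.63 with DESeq2 at the recovered library sizes; its control has 0 reads, so its value rests on the prior. Leaving out either hairpin gave -0.61 to -0.40 for ACAP2, -0.52 to -0.40 for FCHSD2, 3.61 to 4.69 for TFRC and 0.62 to 0.75 for MYLIP. No paired analysis was possible because each comparison has 1 control library, so control and knockdown share fewer than 2 replicate numbers. Counts of called regions without a hairpin could not be fitted, as no residual degree of freedom is left.

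Regions called by edgeR in DMSO (314) were 0 with DESeq2 in both settings, with 80 (own size factors) and 104 (recovered library sizes) under 0.05 before adjustment. Those called in ATRA (267) were 148 on the normalized count scale, 154 with TMM, 13 with DESeq2's own size factors and 0 with DESeq2 at the recovered library sizes (130). Of the 4 members edgeR at the recovered library sizes called 4, beside 100% of tested regions, and DESeq2 called 0 under both settings. With own size factors DESeq2 gave TFRC no adjusted p. Before adjustment 2 members (own size factors) and 1 (recovered library sizes) had a DESeq2 p under 0.05. Over all regions these were 80 of 323 in DMSO and 96 of 268 in ATRA with own size factors. With the recovered library sizes they were 104 and 130. The library scale and the single control limit the values of all 4. For TFRC, with 22 reads, depth limits the value as well, beside 812 to 1468 reads for the other 3.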
